A study of Homo sapiens with 6 samples.

Results

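Oxidative phosphorylation genes were examined in COV434 cells with and without BRG1. The members were all rows of the deposited gene table whose symbol starts with MT-, together with the rows named as nuclear subunits of the respiratory chain and the ATP synthase (symbols starting with NDUFA, NDUFB, NDUFC, NDUFS or NDUFV and a number, SDHA to SDHD, UQCR, COX4 to COX8, or ATP5). This gave 102 of 19899 genes, 13 of them encoded by mitochondrial DNA and 89 by nuclear genes. The rule reads symbols and no measured value, but it was chosen, like the pathway lists used further on, with earlier results of these data known. By role, 36 nuclear members belong to complex I, 4 to complex II, 8 to complex III, 18 to complex IV and 15 to complex V. Of the other 8, UQCRHL, ATP5EP2 and ATP5L2 are copies of subunit genes, ATP5J2-PTCD1 and NDUFC2-KCTD14 are readthrough genes, COX7A2L is a factor of respiratory supercomplexes, and ATP5S and ATP5SL are not subunits.

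The respiratory chain passes electrons from NADH and succinate to oxygen. Complexes I, III and IV pump protons as they do so, complex II (succinate dehydrogenase) pumps none, and complex V, the ATP synthase, uses the proton gradient to make ATP. Mitochondrial DNA is transcribed into long precursors that are cut into messenger RNAs, and these encode core subunits of complexes I, III, IV and V but none of complex II. All other subunits are encoded in the nucleus, so the chain is built from the products of both genomes.

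COV434 is an established human ovarian line that the study treats together with its SCCOHT lines, derived from an aggressive hypercalcemic cancer of the ovary that lacks BRG1 protein. BRG1, which SMARCA4 encodes, is the motor subunit of SWI/SNF complexes, which move nucleosomes. Control cells (n = 3) received the plasmid pCDNA3-neo and BRG1 cells (n = 3) received PBJ5-BRG1, each with pBABE-puro for puromycin resistance. Both groups were placed on 2 to 3 µg/ml puromycin 24 hours after transfection and were kept on it for 3 days. The cells were therefore a transiently transfected population under drug selection, and SMARCA4 was transcribed from a plasmid. Poly(A) RNA was sequenced without strand information as pairs of 78 bases, and messenger RNA levels are given as normalised counts, the deposited estimated counts divided by a size factor for each sample.

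The libraries held 29699759 to 63613736 estimated counts, with BRG1 sample 3 the shallowest. SMARCA4 had 1551 ± 119 normalised counts (SD, n = 3) in Control and 88773 ± 17220 in BRG1 samples, and all 3 BRG1 samples lay far above all 3 Control samples. SMARCA2, the other ATPase gene of the complex, was low in both groups (16.4 ± 10.9 and 24.1 ± 15.9). Of 5 granulosa markers, FOXL2 and FSHR were at or under the floor of 3 counts in every sample. INHA (41.9 and 38.2 normalised counts on average in Control and BRG1) and AMH (295 and 408) had counts and were not called, and CYP19A1, the aromatase gene, rose from 23.3 to 322 (DESeq2 adjusted p = 8.7e-20). The summed level of the 5 was 291 to 470 in Control and 638 to 921 in BRG1 samples. Of 10 markers of immune, endothelial, stromal, liver, glial and muscle cells, CD3E and MYH7 were at the floor, and the summed level was 2347 to 3221 in Control and 6202 to 8019 in BRG1 samples, with VWF, an endothelial gene, rising from 44.8 to 3498. The part of these marker differences in the results was not tested.

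The mitochondrially encoded genes are densely packed, and neighbouring reading frames overlap. The shared bases of the genes that the results turn on are shown, because reads that fall there cannot be assigned to a single gene by position. The end of MT-ATP8 and the start of MT-ATP6 share 46 bases (hg38, chrM:8527-8572, plus strand), which make up 22.2% of MT-ATP8. The end of MT-ND4L and the start of MT-ND4 share 7 bases (chrM:10760-10766). Genes of such a pair are counted here as separate rows, and their values are not independent. The capitals mark the start codon of the downstream gene.
MT-ATP8 and MT-ATP6: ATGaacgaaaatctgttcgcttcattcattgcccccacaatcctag
MT-ND4L and MT-ND4: ATGctaa

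In BRG1 samples the 13 mitochondrial genes were lower as a group, and the change was uneven along the mitochondrial genome. All 13 had a log2 fold change (BRG1 over Control) below 0, with a median of -0.44 and a range of -0.76 to -0.10, against a median of -0.01 over the 15991 genes tested. Of the 13, 6 fell by the DESeq2 test at an adjusted p under 0.05 (MT-ND3, MT-CO3, MT-ATP6, MT-CYB, MT-ND4 and MT-ATP8), or 46.2%. Over all tested genes 1.84% were called lower and 11.0% higher. None of the 13 was called higher by DESeq2, edgeR or limma-voom (edgeR called 9.57% and limma-voom 9.31% of their tested genes higher). At an unadjusted DESeq2 p under 0.05 none was higher and 10 were lower. The share of all genes at that level was not counted, so these numbers are a description. Since the mitochondrial messenger RNAs are abundant, the 7558 genes that averaged 1000 normalised counts or more are a closer background. Of these, 3.28% were called lower and 6.66% higher, and their median log2 fold change was -0.06. The 13 are cut from shared precursors and some overlap, so they are not 13 independent results. The same limit holds for the counts of the 13 that follow.

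Over the genes that averaged 100 normalised counts or more, same-numbered Control and BRG1 samples deviated together. The pairing was less clear over the members. The test was also run with the replicate number as a block. With it 10 of 13 mitochondrial genes were called lower, or 76.9%, MT-CO1, MT-CO2, MT-ND5 and MT-ND6 being added, while the share over all tested genes rose to 6.62% and over the abundant ones to 11.7%, with 13.4% and 10.6% called higher. MT-ND1, MT-ND2 and MT-ND4L were not called in either fit. edgeR called 6 without and 10 with the block, against 1.02% and 5.68% of its tested genes. limma-voom called 6, against 1.19%. On simulated data DESeq2 made a larger share of false calls than its threshold names, with and without the block. For 9 of the 13 the groups did not overlap, a pattern held downward by 9.92% of tested genes and by 15.1% of abundant ones. Within every replicate number the BRG1 sample was the lower of its pair for 13 of 13, a pattern of 27.4% of tested and 37.8% of abundant genes.

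The largest decreases lay in a row on the genome, in MT-ATP6, MT-CO3 and MT-ND3 (chrM:8527-10404). MT-ND3, a core membrane subunit of complex I, had 50612, 48421 and 53309 normalised counts in Control samples 1 to 3 and 29887, 27549 and 32581 in BRG1 samples. Every BRG1 sample lay below every Control sample by a wide margin. Its log2 fold change was -0.76 (SE 0.13, DESeq2 adjusted p = 8.0e-08), and the fold within replicate numbers was 0.591, 0.569 and 0.611. MT-CO3, a core subunit of cytochrome c oxidase, had 310609, 362614 and 330318 normalised counts in Control and 205722, 212417 and 189019 in BRG1 samples. The groups were again separate, with a log2 fold change of -0.72 (SE 0.13, DESeq2 adjusted p = 4.0e-07). MT-ATP6, the proton channel subunit of the ATP synthase, had 172200, 195730 and 177051 in Control and 116334, 119462 and 114335 in BRG1 samples. The 3 BRG1 values were close together and below all Control values, and the log2 fold change was -0.64 (SE 0.12, DESeq2 adjusted p = 7.3e-07).

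The neighbours on either side had smaller log2 fold changes. MT-ATP8 overlaps MT-ATP6 and MT-ND4L overlaps MT-ND4, and differences in size within such a pair were not tested. MT-ATP8, the other ATP synthase subunit of mitochondrial DNA (chrM:8366-8572), had 9431, 9862 and 11881 normalised counts in Control and 7871, 7704 and 7452 in BRG1 samples. No sample of 1 group lay within the other, and the log2 fold change was -0.44 (SE 0.15, DESeq2 adjusted p = 0.0231). MT-ND4 (chrM:10760-12137), a proton-pumping subunit of complex I, had 350410, 355077 and 382545 in Control and 269456, 270390 and 300799 in BRG1 samples, again without overlap. Its log2 fold change was -0.37 (SE 0.12, DESeq2 adjusted p = 0.0171). MT-ND4L, whose reading frame runs into that of MT-ND4, had a log2 fold change of -0.29 (SE 0.15, DESeq2 adjusted p = 0.215) and was not called, although its groups did not overlap. Downstream of these, MT-CYB (chrM:14747-15887), the catalytic core of complex III, had 169177, 183585 and 178386 normalised counts in Control and 130299, 133656 and 117340 in BRG1 samples. The groups were separate, and MT-CYB fell by 0.48 on the log2 scale (SE 0.12, DESeq2 adjusted p = 0.00087).

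These calls were not equally firm. MT-ATP6, MT-CO3, MT-ND3 and MT-CYB were called in all 14 alternatives, which changed the tool, the scaling, the filter, the threshold or the block, or left out a sample. MT-ATP8 was not called without Control sample 2 or 3 or without any 1 of the BRG1 samples (DESeq2 adjusted p of 0.0664 to 0.132). MT-ND4 was not called without any 1 of the Control samples or without BRG1 sample 1 or 2 (DESeq2 adjusted p of 0.0856 to 0.159). All 13 genes kept a log2 fold change below 0 in these alternatives except MT-ND1, which stood at 0.032 without BRG1 sample 3.

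**Figure D1:**
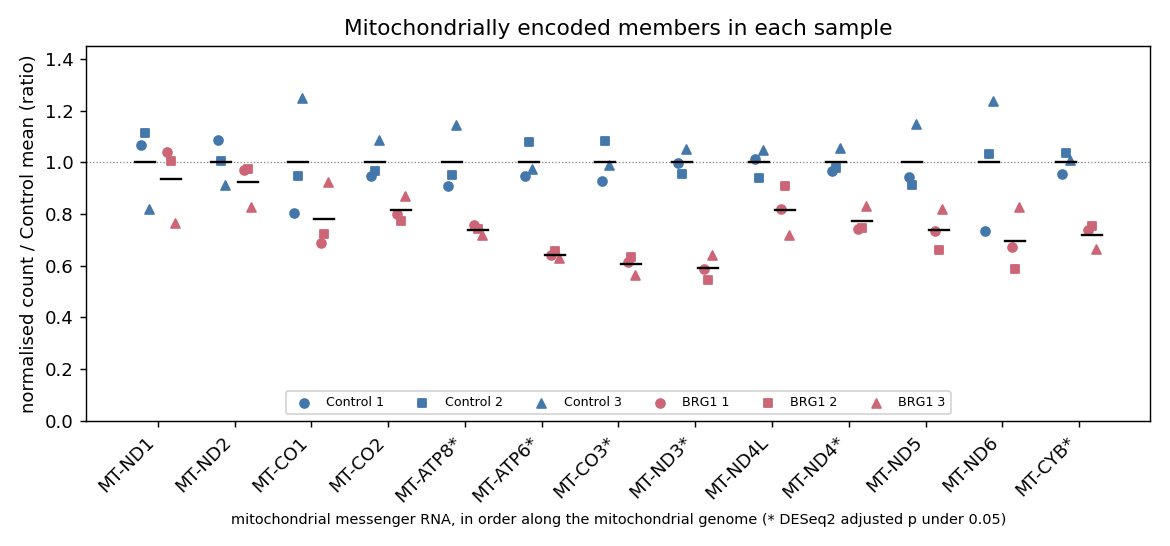
Normalised count of each mitochondrially encoded gene in each sample, divided by its Control mean (vertical axis, a ratio), in genome order from MT-ND1 to MT-CYB. Blue points are Control and red points BRG1 samples, shapes mark the replicate number, black bars are group means, and asterisks mark a DESeq2 adjusted p under 0.05. The BRG1 means are lowest at MT-ATP6, MT-CO3 and MT-ND3 (0.642, 0.605 and 0.591 of Control) and highest at MT-ND1 and MT-ND2 (0.935 and 0.923).

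At the other end of the range were MT-ND1 and MT-ND2, the first messenger RNAs after the ribosomal RNAs (chrM:3307-4262 and chrM:4470-5511). MT-ND1 had 95256, 99374 and 73153 normalised counts in Control and 92731, 89580 and 68114 in BRG1 samples. The groups overlapped widely, sample 3 was the lowest in both, and the log2 fold change was -0.10 (SE 0.20, DESeq2 adjusted p = 0.885). MT-ND2 had 216408, 200184 and 181588 in Control and 193094, 194205 and 164886 in BRG1 samples, with a log2 fold change of -0.12 (SE 0.14, DESeq2 adjusted p = 0.773). These groups also overlapped.

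MT-CO1 and MT-CO2, the catalytic subunits of cytochrome c oxidase, lay between these extremes. MT-CO1 had 498391, 585965 and 772928 normalised counts in Control and 425938, 447169 and 572891 in BRG1 samples, so that sample 3 was high in both groups and BRG1 sample 3 lay above Control sample 1. Its log2 fold change was -0.36 (SE 0.22), with a DESeq2 adjusted p of 0.376 without the block and 0.00091 with it. MT-CO2 had 280816, 286150 and 321210 in Control and 236240, 229266 and 257523 in BRG1 samples, without overlap. Its log2 fold change was -0.30 (SE 0.13), with a DESeq2 adjusted p of 0.122 and 0.0021 with the block.

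Of the remaining complex I genes, MT-ND5 had 172490, 166890 and 210542 normalised counts in Control and 134669, 121051 and 149867 in BRG1 samples. The groups did not overlap, and the log2 fold change was -0.44 (SE 0.16, DESeq2 adjusted p = 0.0551, or 3.1e-06 with the block). MT-ND6 is the 1 messenger RNA here read from the minus strand. It had 49394, 69607 and 83296 in Control and 45319, 39521 and 55651 in BRG1 samples, with a log2 fold change of -0.53 (SE 0.24, DESeq2 adjusted p = 0.152, or 0.0022 with the block). Control sample 1 lay among the BRG1 samples. Because the libraries keep no strand and human MT-ND6 messenger RNA lacks a poly(A) tail, part of its count may come from antisense transcripts, and the 2 cannot be told apart.

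Per kilobase of canonical length, MT-CO2 stood at 432835, MT-CO3 at 426676 and MT-CO1 at 401488 normalised counts in Control, the highest values of the 13. The full length was used, which sets short genes too low, so the scale is rough between genes. MT-ATP6 (266755) and MT-ND4 (263191) followed, and MT-ND1 (93369), MT-ND4L (65476) and MT-ATP8 (50200) were lowest. Values of genes as short as MT-ATP8 and MT-ND4L are the least certain, because few fragments fit in them. They also share bases with MT-ATP6 and MT-ND4, so they are not levels of separate transcripts. The decrease did not follow this order, as MT-CO2 and MT-CO3 had similar levels per kilobase in Control and log2 fold changes of -0.30 and -0.72.

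The uneven decrease altered the make-up of the mitochondrial messenger RNA pool. MT-ATP6, MT-CO3 and MT-ND3 together made up 22.3%, 23.5% and 20.0% of the mitochondrial counts in Control samples 1 to 3 and 18.5%, 18.8% and 16.4% in BRG1 samples. The groups did not overlap, and the share was lower in BRG1 within each number. MT-ND1 and MT-ND2 together made up 13.01%, 11.6% and 9.11% in Control and 15.0%, 14.9% and 11.4% in BRG1 samples. Here the groups overlapped, while the BRG1 sample was the higher of each numbered pair. These sets were put together after their values were seen, so the shares are a description.

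As a share of all counts, the 13 mitochondrial genes took 5.18%, 5.45% and 6.00% in Control and 4.13%, 4.22% and 4.61% in BRG1 samples. The nuclear members took 1.08%, 1.10% and 1.13% in Control and 0.974%, 0.977% and 1.06% in BRG1 samples. Both shares were lower in every BRG1 sample than in any Control sample. In RNA from a whole culture, fewer cells of a type, fewer transcripts per cell and more RNA of other genes cannot be told apart.

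The nuclear members had smaller differences than the mitochondrial genes, and few passed the test. They include the copies and other genes set apart from the complexes above, of which UQCRHL and COX7A2L were called. Of the 89, 86 had counts and 84 were tested. Of these 84, 71 had a log2 fold change below 0 and the median was -0.15, against -0.01 over all tested genes and -0.06 over the abundant ones, of which 62.0% were below 0. DESeq2 called 7 lower (8.33%, against 1.84% of all tested genes and 3.28% of abundant ones). It called none higher, where 11.0% of all tested and 6.66% of abundant genes were higher. At an unadjusted DESeq2 p under 0.05 there were 16 lower and 1 higher (NDUFA9). The share of all genes at that level was not counted. Adding the block, 17 were called lower (20.2%, against 6.62% and 11.7%), and edgeR called 4 without the block (4.76%, against 1.02%) and 12 with it (14.3%, against 5.68%). Neither edgeR fit called any higher, where 9.57% of its tested genes were higher without the block and 13.7% with it. For 23 nuclear members the groups did not overlap with BRG1 lower, or 27.4%, against 9.92% of tested and 15.1% of abundant genes.

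The count of 7 also depended on single samples. It was 1 without Control sample 1, Control sample 2 or BRG1 sample 2, 2 without Control sample 3, 4 without BRG1 sample 1 and 9 without BRG1 sample 3. UQCRB was called in each case. NDUFS5, ATP5L and UQCRHL were called without BRG1 sample 3 but not without any 1 of the other samples (DESeq2 adjusted p of up to 0.255, 0.267 and 0.206). UQCRH and COX4I1 were not called without any 1 of the Control samples or without BRG1 sample 2 (up to 0.166 and 0.121), and COX7A2L was not called without Control sample 1 or 2 or BRG1 sample 2 (up to 0.146).

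**Figure D2:**
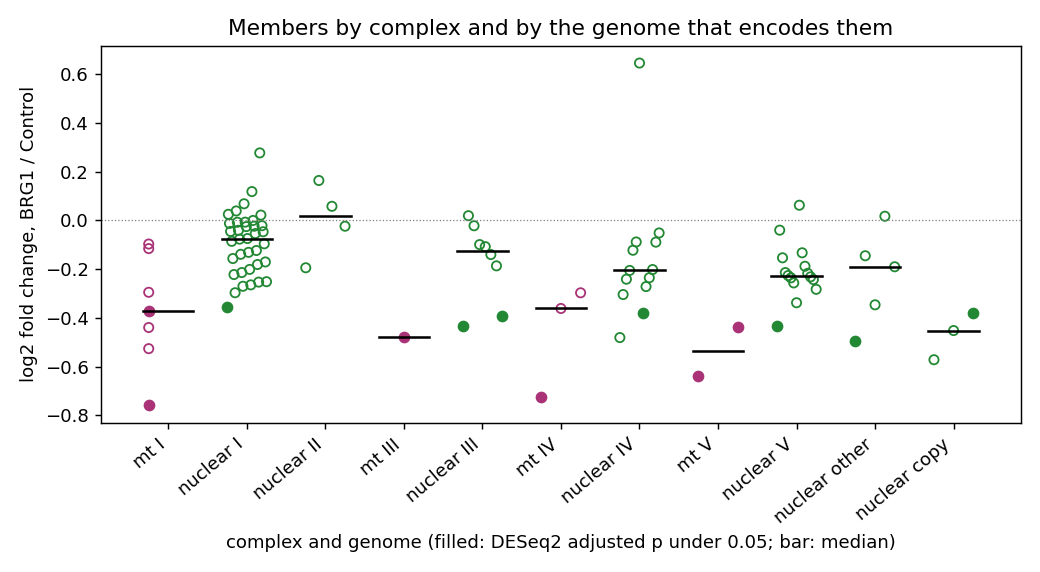
Log2 fold change (BRG1 over Control, vertical axis) of each tested member, grouped by complex and by the genome that encodes it. Purple circles are mitochondrially and green circles nuclear encoded members, filled where the DESeq2 adjusted p was under 0.05, and bars are medians. The mitochondrial points lie below 0 in all 4 complexes that have them, and the nuclear medians of complexes I to V lie between -0.23 (complex V) and 0.02 (complex II). The medians of the other nuclear members and of the copies are -0.19 and -0.45.

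In complex I, the NADH dehydrogenase, 29 of 36 nuclear genes had a log2 fold change below 0 and the median was -0.08. Only 1 was called lower (2.78%, against 1.84% of all tested genes and 3.28% of abundant ones). This was NDUFS5, an accessory subunit, with 10553, 11582 and 10911 normalised counts in Control and 8221, 8297 and 9351 in BRG1 samples. Control and BRG1 samples were separate, and the log2 fold change was -0.35 (SE 0.12, DESeq2 adjusted p = 0.0377). The next by p were NDUFB5 and NDUFB11, accessory subunits of the membrane arm, with log2 fold changes of -0.30 and -0.27 and DESeq2 adjusted p of 0.0941 and 0.101. DESeq2 with the block called both, as well as NDUFA6 and NDUFB9, while edgeR with the block called NDUFB5 but not the other 3 (edgeR adjusted p of 0.0566 for NDUFB11, 0.0568 for NDUFA6 and 0.0634 for NDUFB9). NDUFA9, chosen after its values were seen, was the 1 nuclear member whose groups were separate in the upward direction (1965, 2125 and 2083 in Control, 2544, 2690 and 2242 in BRG1 samples), but it was not called (log2 fold change 0.28, DESeq2 adjusted p = 0.221). The 7 mitochondrial genes of complex I had a median of -0.37, and 2 were called (28.6%).

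Complex II has no mitochondrially encoded subunit. Its 4 genes had a median log2 fold change of 0.02 and none was called by DESeq2 or edgeR, with or without the block, or at an unadjusted p under 0.05. SDHA, the flavoprotein that oxidises succinate, had 8578, 7725 and 8681 normalised counts in Control and 9467, 7998 and 8548 in BRG1 samples. The log2 fold change was 0.06 (SE 0.13), SDHB was at -0.02, and the membrane anchors SDHC and SDHD were at -0.19 and 0.16. The groups overlapped for each of the 4, and their summed counts in BRG1 samples were 0.991 of Control.

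In complex III, 7 of 8 nuclear genes were below 0 and the median was -0.12. Of the 8, 2 were called lower (25%, against 1.84% of all tested genes and 3.28% of abundant ones). UQCRB, the ubiquinone-binding subunit, had 13329, 13439 and 14344 normalised counts in Control and 10311, 9883 and 10296 in BRG1 samples. The groups were well apart, and the log2 fold change was -0.43 (SE 0.11, DESeq2 adjusted p = 0.00076). UQCRB was the 1 nuclear member called in all 14 alternatives. UQCRH, the hinge protein (chr1:46303698-46316776), had 10766, 10180 and 9873 in Control and 8204, 7159 and 8133 in BRG1 samples, also without overlap. Its log2 fold change was -0.39 (SE 0.13, DESeq2 adjusted p = 0.0172). UQCRHL, a copy of UQCRH on the same chromosome with nearly the same sequence, was called lower too, with a log2 fold change of -0.38 (SE 0.13, DESeq2 adjusted p = 0.0238), but its reads cannot be cleanly separated from those of UQCRH, so the pair is better read as 1 result. UQCR11 was at -0.19 and was not called, and UQCRC2, UQCRC1 and UQCRFS1, the core and iron-sulfur subunits, were at -0.11, 0.02 and -0.02.

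In complex IV, cytochrome c oxidase, 12 of 13 tested nuclear genes were below 0 and the median was -0.20. Of the 13, 1 was called lower (7.69%, against 1.84% of all tested genes and 3.28% of abundant ones). COX4I1, the common form of the largest nuclear subunit (chr16:85798633-85807068), had 13826, 14553 and 14412 normalised counts in Control and 11296, 10159 and 11424 in BRG1 samples. The groups were separate, and the log2 fold change was -0.38 (SE 0.12, DESeq2 adjusted p = 0.0112). NDUFA4, once assigned to complex I and now to complex IV, had 13440, 16810 and 14159 in Control and 8289, 11163 and 12379 in BRG1 samples. Its log2 fold change of -0.48 was larger in size than that of COX4I1, but its replicates were more spread (SE 0.20, DESeq2 adjusted p = 0.105, or 0.00067 with the block). COX7C was at -0.24 (DESeq2 adjusted p = 0.278, or 0.0345 with the block) and was not called by edgeR with the block (edgeR adjusted p = 0.0709).

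The tissue-restricted forms of complex IV subunits were almost silent. COX4I2, COX6A2 and COX7B2 had no counts in any sample, which allows up to 3 counts in a library. COX7A1 and COX8C held at most 3 counts in each sample and were not tested. COX6B2, the testis form, and NDUFA4L2, a hypoxia-responsive relative of NDUFA4, had control means of 7.53 and 7.77 normalised counts, with log2 fold changes of 0.65 (SE 0.78) and -0.27 (SE 0.94) that were not distinguishable from 0 at this depth.

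In complex V, the ATP synthase, 14 of 15 nuclear genes were below 0 and the median was -0.23. Of the 15, 1 was called lower (6.67%, against 1.84% of all tested genes and 3.28% of abundant ones). ATP5L, subunit g of the membrane part (chr11:118401346-118433278), had 10081, 10913 and 10335 normalised counts in Control and 7050, 7141 and 9037 in BRG1 samples. BRG1 sample 3 lay nearer to Control than the others did, without overlap, and the log2 fold change was -0.43 (SE 0.16, DESeq2 adjusted p = 0.0431). ATP5F1 (subunit b) and ATP5O (the subunit that joins the stalk to the catalytic head) were at -0.26 and -0.24 without overlap and were called with the block alone (DESeq2 adjusted p = 0.0262 and 0.0413). Of these, edgeR with the block called ATP5F1 but not ATP5O (edgeR adjusted p = 0.0642). ATP5E and ATP5G1 were also called with the block by both tools. ATP5B, the catalytic beta subunit and the most abundant nuclear member by counts, had 32987, 36892 and 37087 in Control and 33924, 33578 and 36561 in BRG1 samples. Those groups overlapped fully, and the log2 fold change was -0.04 (SE 0.12, DESeq2 adjusted p = 0.931).

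COX7A2L, which helps to join complexes into supercomplexes (chr2:42333546-42425088), had 7991, 7455 and 6863 normalised counts in Control and 5997, 4657 and 5173 in BRG1 samples. Control and BRG1 values were apart, and the log2 fold change of -0.49 (SE 0.16, DESeq2 adjusted p = 0.0152) was the largest decrease among the nuclear members called. The readthrough genes ATP5J2-PTCD1 and NDUFC2-KCTD14 share 93.4% and 99.6% of their exonic bases with other genes, so their values are uncertain, and neither was called. ATP5EP2 and ATP5L2, copies of ATP5E and ATP5L, were at -0.57 and -0.45 and were not called.

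**Figure D3:**
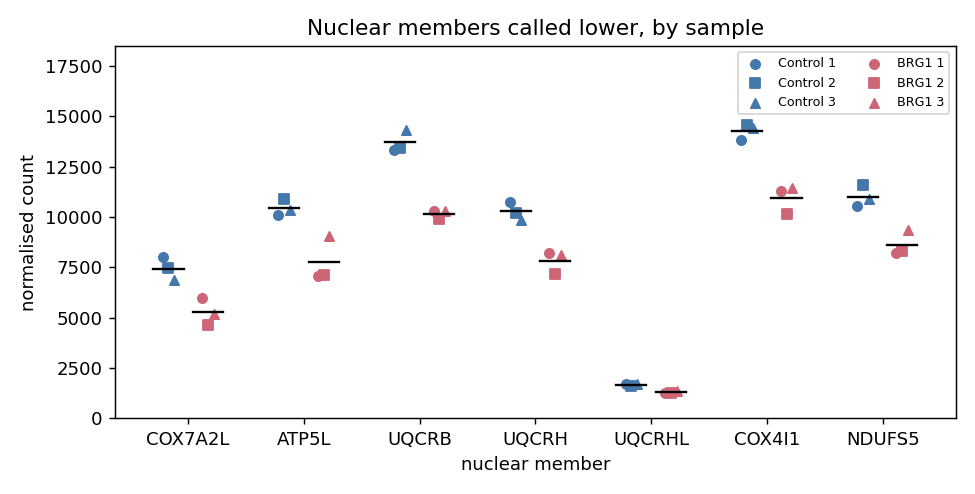
Normalised counts (vertical axis, from 0) of the 7 nuclear members called lower, in each sample. Blue points are Control and red points BRG1 samples, shapes mark the replicate number, and bars are group means. In all 7 the BRG1 samples lie below the Control samples, with fold values between 0.709 (COX7A2L) and 0.783 (NDUFS5).

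The 7 nuclear members called had a median mean normalised count of 9093 against 4244 for the 77 tested but not called, while UQCRHL, the lowest of the 7, stood at 1478. Their median canonical transcript length was 763 bases against 857.

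**Figure D4:**
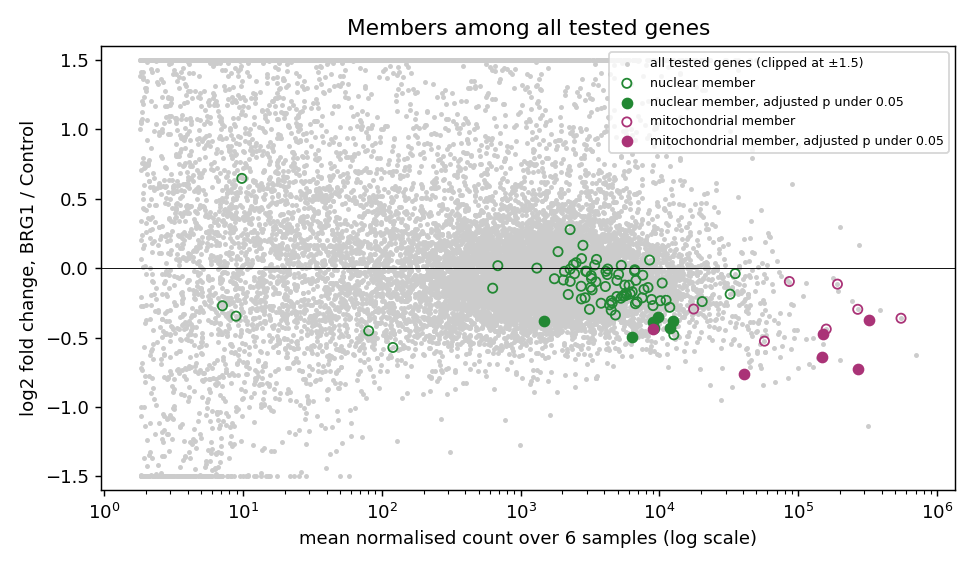
Log2 fold change (vertical axis, BRG1 over Control, values beyond 1.5 drawn at the edge) against the mean normalised count over the 6 samples (horizontal log axis) for all 15991 tested genes in grey and the members in colour, filled where the DESeq2 adjusted p was under 0.05. The mitochondrial members (purple) all lie below 0 and, except for MT-ATP8 and MT-ND4L, to the right of every nuclear member. Most nuclear members (green) lie between 0 and -0.3.

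Promoters from 250 bases before to 50 bases after the start (RefSeq, GRCh38.p14) matched 68 of the 89 nuclear members, in 81 entries because some genes have several starts. Both strands were searched for the letters GCGCANGCG (NRF1), CCGGAAG (ETS factors such as GABPA), AAGATGGCG (YY1) and TGANTCA (AP-1). NRF1 letters were in 27.2% of member entries and 7.52% of all 35116 entries, ETS letters in 25.9% and 10.3%, YY1 letters in 12.3% and 1.75%, and AP-1 letters in 4.94% and 7.71%. Among the 22199 entries of protein-coding genes, a closer background, the shares were 9.64%, 12.8%, 2.41% and 6.15% in the same order. Of the 5 entries of called genes (COX7A2L has 2), 3 held the ETS letters and none held the others. No promoter entry was searched for the called genes UQCRB, UQCRHL and NDUFS5. ATP5L, COX4I1 and UQCRH are shown with 30 bases around the match, since they are the searched called members that share a motif. The capitals mark the match, which reads on the opposite strand as CCGGAAG.
ATP5L: tgcagcgggtcCTTCCGGcgggtgacattc
COX4I1: ggccttgctctCTTCCGGtcgcgggacacc
UQCRH: agtgtgccgcaCTTCCGGccagatcgccgg
They lie at chr11:118401596-118401625, chr16:85799686-85799715 and chr1:46303641-46303670, all on the plus strand. Relative to the RefSeq starts, the match lies at the start in ATP5L and COX4I1 and 46 bases before it in UQCRH. For ATP5L and COX4I1 the RefSeq start lies downstream of the first base of the GENCODE gene given above, so there the match falls inside the gene. Letter matches are a description and show no binding.

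The ratio of mitochondrial to nuclear counts was lower in BRG1 cells in each complex that has both. This ratio is taken within a sample and needs no size factor, and as a score over members it is given without a test. Over complexes I, III, IV and V together the log2 ratio was 2.38, 2.40 and 2.505 in Control and 2.19, 2.21 and 2.21 in BRG1 samples. Every BRG1 sample lay below every Control sample, and the mean difference was -0.22, which corresponds to a change from 5.38 to 4.61 mitochondrial counts per nuclear count. The differences within replicate numbers were -0.19, -0.19 and -0.29.

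Complex V had the widest shift. Its log2 ratio was 0.16, 0.26 and 0.11 in Control and -0.25, -0.18 and -0.36 in BRG1 samples, a mean difference of -0.44 that took the 2 mitochondrial genes from 1.13 to 0.833 counts per count of the 15 nuclear genes. The mean difference was -0.28 in complex III, -0.20 in complex I and -0.18 in complex IV. The groups did not overlap in any of the 4 complexes, and the BRG1 sample was the lower of every numbered pair. In complex IV the difference was -0.10 without Control sample 3, where MT-CO1 was high.

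**Figure D5:**
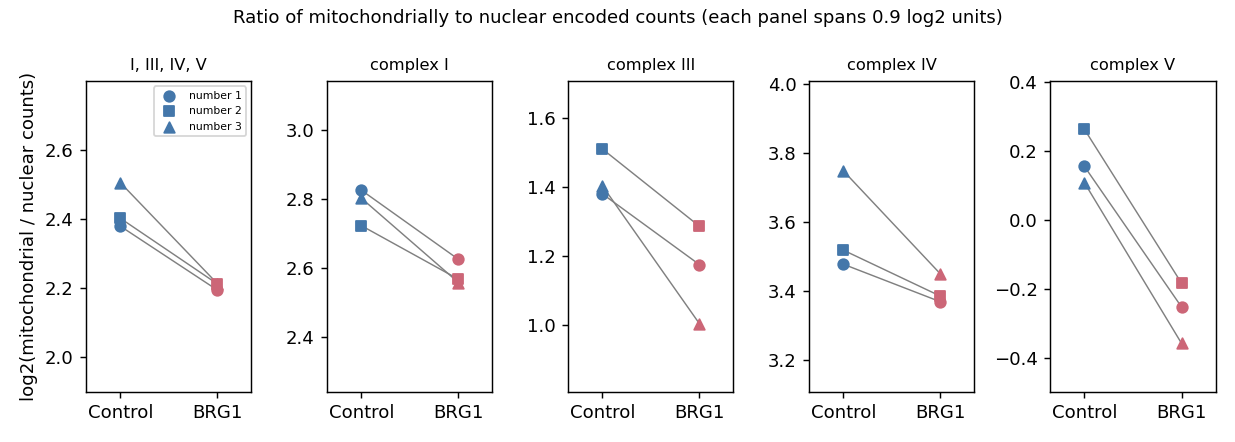
Log2 ratio of summed mitochondrial to summed nuclear counts (vertical axis) for complexes I, III, IV and V together and for each alone, in Control (blue) and BRG1 (red) samples. Lines join samples with the same replicate number, and each panel spans 0.9 log2 units. All lines run downward, by 0.41, 0.45 and 0.47 in complex V for numbers 1, 2 and 3.

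Both terms of the ratio were lower in BRG1 samples. Summed normalised counts of the mitochondrial genes in BRG1 were 0.798 of Control in complex I, 0.718 in complex III, 0.741 in complex IV and 0.648 in complex V. For the nuclear genes of the same complexes they were 0.916, 0.869, 0.842 and 0.879. The groups did not overlap for any of these 8 sums, while the 4 nuclear genes of complex II overlapped.

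Other genes of the pathway were read from lists of 166 genes, of which 165 were tested. Of these, 7 were called lower (4.24%, against 1.84% of all tested genes and 3.28% of abundant ones) and 4 higher, where 11.0% of all tested genes and 6.66% of abundant ones were higher. Their median log2 fold change was -0.08. With the block DESeq2 called 15 lower (9.09%, against 6.62% of all tested and 11.7% of abundant genes) and 12 higher (where 13.4% and 10.6% were higher). edgeR without the block called 3 lower (1.82%, against 1.02%) and 4 higher (where 9.57% were higher). Without BRG1 sample 3 the counts were 11 lower and 11 higher, and without any 1 of the other samples 2 or 3 lower and 3 to 5 higher. Among 5 subunits that the symbols above leave out, C14orf2, a small proteolipid of the ATP synthase, fell by 0.47 on the log2 scale (SE 0.12, DESeq2 adjusted p = 0.0012), and CYC1, cytochrome c1 of complex III, was at -0.17 (DESeq2 adjusted p = 0.531). SLC25A6, an ADP/ATP carrier of the inner membrane, had 16915, 18664 and 20651 normalised counts in Control and 11285, 11088 and 13048 in BRG1 samples. The groups were separate, and its log2 fold change of -0.67 (SE 0.15, DESeq2 adjusted p = 0.00010) was the largest decrease among the called genes of these lists. Of 51 assembly factors, 1 was called lower (1.96%, against 1.84% of all tested genes and 3.28% of abundant ones). This was LYRM7, which serves complex III (-0.51, DESeq2 adjusted p = 0.0227).

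Of 34 genes that copy, transcribe and process mitochondrial DNA and RNA, 1 was called higher and 1 lower. The lower call was 2.94% of them, against 1.84% of all tested genes and 3.28% of abundant ones. Among those, 11.0% and 6.66% were called higher. PNPT1, a mitochondrial exoribonuclease also known as an interferon-responsive gene, had 1938, 2085 and 1674 normalised counts in Control and 5535, 7042 and 5481 in BRG1 samples. All BRG1 samples lay above all Control samples, and the log2 fold change was 1.67 (SE 0.18, DESeq2 adjusted p = 1.3e-19). TFB1M, a methyltransferase of the mitochondrial small ribosomal RNA, was lower (-0.43, DESeq2 adjusted p = 0.0191). POLRMT, the mitochondrial RNA polymerase, was at -0.17 (SE 0.16, DESeq2 adjusted p = 0.658) and TFAM, its DNA-packaging transcription factor, at -0.29 (SE 0.17, DESeq2 adjusted p = 0.359), so neither was called.

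Of 14 regulators of mitochondrial biogenesis, ESRRB, an estrogen-related receptor, rose from 2.34 to 20.7 normalised counts and is low in both groups. PPARGC1A, the coactivator PGC-1 alpha, had 450, 585 and 438 in Control and 332, 392 and 319 in BRG1 samples, with no overlap and a log2 fold change of -0.49 (SE 0.21, DESeq2 adjusted p = 0.111, or 0.0423 with the block). Of 18 genes of the tricarboxylic acid cycle, IDH2 fell (-0.48, DESeq2 adjusted p = 0.0151). Of 25 glycolysis genes, SLC2A1, the glucose transporter GLUT1, and PGAM1 rose by log2 fold changes of 1.13 and 0.47, and LDHB, the lactate dehydrogenase B chain, fell (-0.35), with DESeq2 adjusted p of 0.0012, 0.0046 and 0.0115. Of 10 tested genes for uncoupling and antioxidant defence, PRDX5 was called lower (-0.48, DESeq2 adjusted p = 0.0310). Lower calls made up 5.56% of the tricarboxylic acid cycle genes, 4% of the glycolysis genes and 10% of this last list. The shares over all tested and over abundant genes were 1.84% and 3.28% lower, and 11.0% and 6.66% higher. Lists this short give 1 or 2 calls each, so the calls are read gene by gene. The calls of LYRM7, TFB1M, IDH2 and PRDX5 were not made by edgeR without the block. C14orf2, SLC25A6, PNPT1 and SLC2A1 were called by DESeq2 whichever sample was left out. ESRRB was not called without BRG1 sample 2 (DESeq2 adjusted p = 0.0691) and PGAM1 not without Control sample 1 or 2 (up to 0.0766). LDHB, LYRM7, TFB1M, IDH2 and PRDX5 each lost the call without Control sample 1 or 2 or BRG1 sample 2, at DESeq2 adjusted p of up to 0.220. LDHB lost it also without BRG1 sample 1, and LYRM7 also without Control sample 3. TFB1M, IDH2 and PRDX5 kept the call only when BRG1 sample 3 was the one left out.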

How the data were processed

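RNA-seq of COV434 cells was taken from 3 Control and 3 BRG1 samples, which the series calls biological replicates. Per the study's methods and the submitters' processing notes, the authors checked reads with FastQC 0.11.5, aligned them with STAR 2.5.3a in 2 passes (hg38, GENCODE v24), quantified transcripts with Salmon 0.8.2 and summarised them per gene by tximport. Each deposited value is an estimated count for 1 gene symbol, scaled by the authors to transcript length and library size, so they need not be whole. Salmon shares out reads that fit several genes, which leaves copies, overlapping genes and mitochondrial genes with nuclear copies uncertain.

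The estimated counts were rounded and tested with the Wald test of DESeq2 1.42.0 in R 4.3.3 (BRG1 against Control, median-ratio size factors, no covariate), with Benjamini-Hochberg adjustment over all 15991 genes that received an adjusted p and a threshold of 0.05. The study names DESeq2 and gives no formula. Alternatives were edgeR 4.0.16 (quasi-likelihood) and limma 3.58.1 (voom), both with TMM factors, DESeq2 with TMM factors, size factors made without mitochondrial genes, a filter of 10 counts in 3 samples, an adjusted p under 0.01, the replicate number as a block in DESeq2 and edgeR, and each sample left out. The fits other than the size factors without mitochondrial genes, the stricter threshold and the left-out samples were tested on simulated data. With 200 genes changed by 1 log2 unit, 20.4% of the DESeq2 calls were false, and 25.6% with the block. With 2000 changed the shares were 8.48% and 8.83%, also above the threshold of 0.05. For edgeR without the block they were 3.88% and 4.27%. With 200 genes changed by 1 log2 unit edgeR with the block recovered none, and with 2000 it recovered 78.6%. The simulated counts held no effect of the replicate number, so they cannot show how the fits act on paired samples. Smaller changes, such as those of the mitochondrial members, were not tested in this way. Folds of groups at or under 3 counts are not given. Totals of 29699759 to 63613736 counts per sample set the counting error.

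The replicate numbers in the labels were taken to pair the samples, because deviations from the group means correlated between same-numbered samples (r of 0.51, 0.51 and 0.61 over 11686 genes that averaged 100 normalised counts or more). Between differently numbered samples r was at most 0.07 over these genes. For the mitochondrial members same-numbered r was 0.67, 0.32 and 0.86. It was 0.69 for Control 1 with BRG1 2 and 0.46 for Control 2 with BRG1 1. For the nuclear members same-numbered r was 0.65, 0.22 and 0.50, and it was 0.31 for Control 2 with BRG1 3. The other differently numbered pairs had r of at most 0.07. Coordinates and transcript lengths of all 102 members are from GENCODE v44 on hg38, with older symbols matched to current ones. Members, their split by complex and the pathway lists were chosen with earlier results of these data known. The genes named were SMARCA4, all mitochondrial messenger RNAs, in each complex the 3 nuclear members with the smallest p and the most abundant one, the members called, the tissue-restricted forms, up to 3 called genes of each pathway list, and PPARGC1A, TFAM, POLRMT, PNPT1 and CYC1. NDUFA6, NDUFA9, NDUFB9, ATP5E, ATP5G1, UQCRC1, UQCRC2, UQCRFS1, SDHB and the readthrough genes and copies were named after their values were seen.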

Additional observations from a re-analysis of the deposited data

How the results depend on the processing

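With the replicate block DESeq2 called 1035 genes lower in place of 294, 10 mitochondrial members in place of 6, 17 nuclear members in place of 7, and 15 lower and 12 higher genes of the pathway lists in place of 7 and 4. edgeR with the block called 809, 10, 12, 12 and 9. Without the block edgeR called 146 genes lower, 4 nuclear members and 3 lower pathway genes, and limma-voom called 169, 4 and 4. At an adjusted p under 0.01 the counts were 130, 1 and 2. Leaving out 1 sample gave 117 (without BRG1 replicate 2) to 596 (without BRG1 replicate 3) genes lower, 1 to 9 nuclear members, 2 to 11 lower pathway genes, and 3 to 11 higher ones, the last without BRG1 replicate 3. Mitochondrial members called lower ranged from 4 to 7. The causes of these differences were not tested. Paired and unpaired means of the ratio of mitochondrial to nuclear counts are equal by construction (-0.22 over all complexes). Taking the mean of member log2 counts in place of sums moved its difference to -0.28 over all complexes, -0.28 in complex I and -0.33 in complex V. Among the alternatives for single genes, 583 kept direction and side of the threshold, 27 gained and 88 lost a call, and 4 turned in sign. Leaving out BRG1 replicate 3 put MT-ND1 at 0.032, leaving out 1 sample gave SDHA -0.0084 to 0.11 (lowest without BRG1 replicate 1), and gave NDUFA4L2 -0.54 to 0.13 (0.054 without Control replicate 1, 0.13 without BRG1 replicate 2). None of these 3 was called in the main test. With 2 samples in a group the spread is estimated from few values.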
